A study of Mus musculus with 10 samples.

Results

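The genes described here encode the Wnt ligands, their receptors and the secreted and membrane proteins that modulate them. They were chosen by symbol among protein-coding genes: every Wnt, Frizzled (Fzd), R-spondin (Rspo), Sfrp, Dkk and Lgr4 to Lgr6 gene, together with Lrp5, Lrp6, Axin2, Lef1, Wif1, Znrf3 and Rnf43. This rule found 51 genes among the 55536 rows of the count table. By role they were 19 Wnt ligands, 10 Frizzled receptors, 2 Lrp co-receptors, 4 R-spondins, 3 Lgr receptors, 2 receptor ubiquitin ligases, 9 secreted inhibitors and 2 feedback or target genes.

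The study used translating ribosome affinity purification (TRAP) to sample ribosome-bound RNA from the primary somatosensory cortex of mice. In all groups the region named S1DZ in the labels received the Cre-dependent virus AAV5-EF1α-Flex-EGFPL10a, at 400 nl per side and 0.1 µl per minute. The virus puts an EGFP tag on the ribosomal protein L10a of cells that carry Cre, and ribosomes were pulled down 4 weeks later with antibodies against GFP. The groups were 3 libraries of the genotype labelled Il-17rb-Cre, 3 of Il-17ra-Cre and 4 of Il-17rc-Cre, written below as Il17rb-Cre, Il17ra-Cre and Il17rc-Cre. Il17rb, Il17ra and Il17rc encode subunits of the interleukin-17 receptors, and in each genotype 1 of these genes is the Cre driver. Each group is therefore defined by where its driver was active and where the virus entered cells. The animals' age is not given in the sources used here, and the labels do not say whether replicates came from separate animals, so p-values measure the spread between these libraries. Whole-tissue RNA was not analysed here.

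Wnt proteins are lipid-modified secreted ligands that bind Frizzled receptors together with Lrp5 or Lrp6 and, in the canonical branch, stabilise β-catenin, which acts with Tcf and Lef factors on target genes. R-spondins act with Lgr4 to Lgr6 to keep the ubiquitin ligases Znrf3 and Rnf43 from removing Frizzled receptors from the cell surface, while Sfrp and Wif1 proteins bind Wnts and Dkk1, Dkk2 and Dkk4 act on Lrp5 and Lrp6. In brain, Wnt7a and Wnt7b signal to the endothelium of the blood-brain barrier, and Wnt ligands also act in synapse formation and glial development.

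Several libraries stood apart from their group. Total counts were 55007935 to 78794795 in Il17rb-Cre, 39692925 to 165844244 in Il17ra-Cre and 44669145 to 70995932 in Il17rc-Cre, and 14592 to 83725 counts per library fell on the 51 genes. Il17ra-Cre replicate 3 was the deepest library and differed from the other two of its group. Rpl10a, the gene of the tagged protein, measured 602.4 to 669.6 CPM in Il17rb-Cre (counts scaled for library size and composition). In Il17ra-Cre it measured 58.7, 70.9 and 678.8 CPM, and in Il17rc-Cre 190.8 to 267.1 CPM, so that Il17ra-Cre replicates 1 and 2 were the lowest of the 10 libraries. Il17rc-Cre replicates 1 and 3 differed from replicates 2 and 4 in several of the genes below. Il17rb itself did not follow its label, at 0.614 to 0.872 CPM in Il17rb-Cre, 1.27 to 3.75 CPM in Il17ra-Cre and 0.0667 to 2.72 CPM in Il17rc-Cre, so groups are named by label only. The Il17ra gene measured 18.04 to 30.7 CPM in Il17rb-Cre, 16.7 to 21.4 CPM in Il17ra-Cre and 15.6 to 21.7 CPM in Il17rc-Cre, so the groups overlapped. For the Il17rc gene the ranges were 1.03 to 3.19 CPM in Il17rb-Cre, 21.3 to 41.2 CPM in Il17ra-Cre and 20.3 to 39.9 CPM in Il17rc-Cre, low in Il17rb-Cre alone.

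Of the 51 genes, 44 had enough counts to be tested. Wnt3a, Wnt8a and Dkk1 had no read in any of the 10 libraries. Wif1 had 72 reads over the 10 libraries, Wnt10b 49, Rspo4 22 and Dkk4 4, and none of these 4 passed 0.470 CPM in any library. Of the Wnt10b reads, 48 fell in Il17rb-Cre, as 21, 23 and 4 per library, 1 in Il17ra-Cre and 0 in Il17rc-Cre. A group mean of at least 1 CPM was reached by 38 genes. The filter asked for enough counts in at least 3 libraries, the size of the smallest group, whichever groups they came from. A gene detected in 1 group alone could thus enter the test, and counts below are counts of tested genes.

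Il17rb-Cre libraries were marked by high Rspo1, Wnt10a, Wnt9a and Wnt4 and by low Wnt7a, Wnt7b, Fzd1, Fzd7, Lgr6 and Sfrp1. Against Il17ra-Cre, 6 of the 44 genes were higher and 14 lower (edgeR quasi-likelihood test, Benjamini-Hochberg (BH) adjusted p under 0.05). These were 13.6% and 31.8% of the genes tested, beside 16.4% higher and 24.4% lower among all 20301 genes. Against Il17rc-Cre, 5 were higher and 17 lower, 11.4% and 38.6%, beside 17.7% and 21.9% of all genes. Il17ra-Cre against Il17rc-Cre gave no gene higher and 3 lower, or 6.82%, beside 0.798% of all genes. For higher genes the background in that comparison was 1.38% at the adjusted threshold. At an unadjusted edgeR p under 0.05, 2 of the 44 were higher, and the share of all genes at that threshold is not given here. DESeq2 called 1 higher in Il17ra-Cre against Il17rc-Cre, beside 4.82% of all genes, and limma voom 4, beside 13.4%. Its 3 lower genes, Wnt7b, Fzd1 and Lgr6, became 6 without Il17ra-Cre replicate 3, where 6.38% of all genes were lower. They became 1 without Il17rb-Cre replicate 3, beside 0.142% of all genes, and 3 without Il17rc-Cre replicate 2, beside 1.23%. Without any other single library they became 0, beside at most 0.14% of all genes.

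In Il17rb-Cre the median log2 fold change of the 44 genes was -0.87 relative to Il17ra-Cre and -1.20 relative to Il17rc-Cre, and in Il17ra-Cre it was -0.40 relative to Il17rc-Cre. Over all genes tested it was -0.092, 0.023 and 0.032 in the same order. Placing Wnt11, which had no read in Il17rb-Cre, at its bound left the medians of the 44 genes at -0.87 and -1.20. Both comparisons of Il17rb-Cre share its 3 libraries, so their values are given side by side and are not independent of each other. Unless another fit or method is named, calls below are those of the edgeR test of all 10 libraries.

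**Figure D1:**
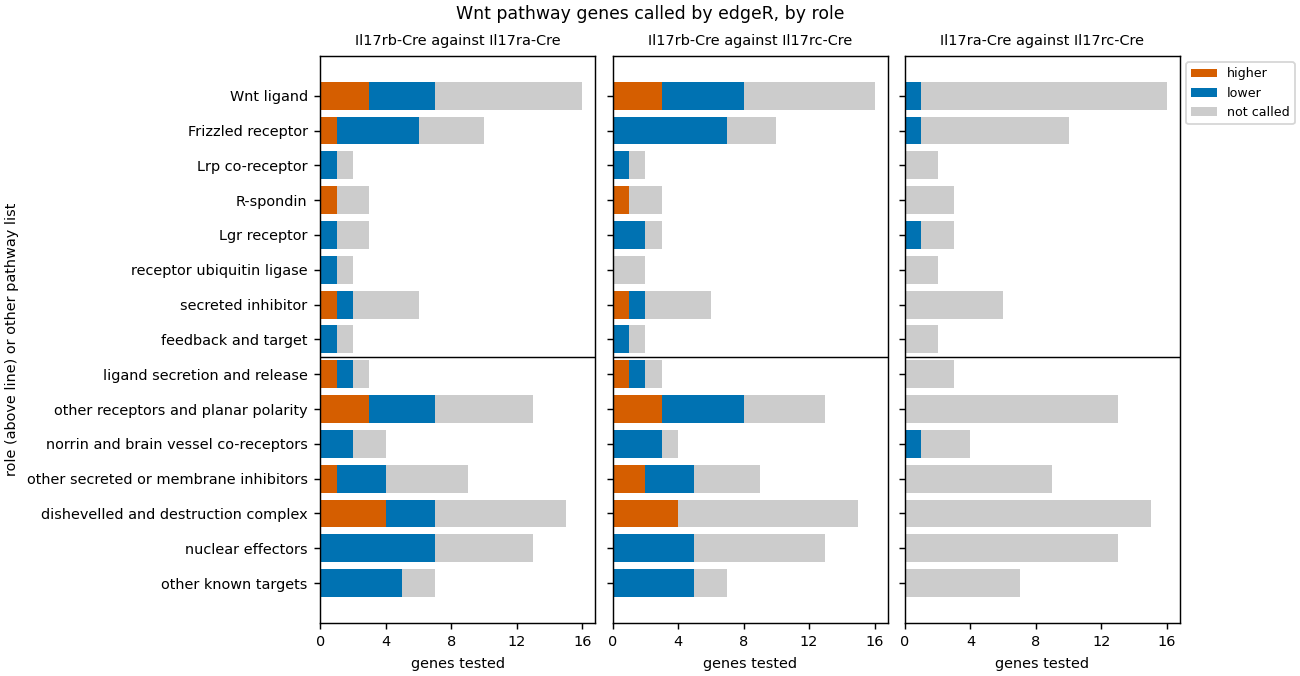
Number of tested genes higher, lower or not called in each comparison (x axis, genes tested), by role for the 44 Wnt genes and by list for the other pathway genes (y axis). Frizzled receptors hold the most lower calls of any role, with 5 of 10 against Il17ra-Cre and 7 of 10 against Il17rc-Cre. Of all genes, 24.4% and 21.9% were lower in these comparisons.

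Without Il17ra-Cre replicates 1 and 2, 4 genes were higher and 8 lower in Il17rb-Cre against the single Il17ra-Cre library left, whose spread is assumed to be that of the other groups. Of all genes, 6.4% were higher and 11.9% lower in that fit. Those higher were Rspo1, Wnt10a, Wnt2 and Wnt9a, and those lower were Fzd1, Fzd2, Fzd7, Lgr6, Sfrp1, Wnt11, Wnt7a and Wnt7b. Without Il17ra-Cre replicate 3 instead, 10 were higher and 14 lower, beside 20.9% and 26.1% of all genes, and without Il17rb-Cre replicate 2 the lower count was 9, beside 19.3%. Against Il17rc-Cre, leaving out Il17rc-Cre replicates 1 and 3 gave 2 higher (Rspo1 and Wnt4) and 15 lower, beside 11% and 18.3% of all genes. The count higher against Il17rc-Cre was also 8 without Il17ra-Cre replicate 3, beside 20.3% of all genes. It was 3 without replicate 2 of Il17rb-Cre, beside 10.5%, and without replicate 3 or 4 of Il17rc-Cre, beside 15.3% and 14.9%.

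Cell type markers moved with these groups. Summed levels of 7 excitatory neuron markers were 17745 to 20806 CPM in Il17rb-Cre, 1557 to 6679 CPM in Il17ra-Cre and 2165 to 3580 CPM in Il17rc-Cre, and all 7 rose in Il17rb-Cre against either group. Nrgn made up most of these sums, at 18141 CPM of the 20806 CPM in Il17rb-Cre replicate 1. The 8 astrocyte markers summed to 578.4 to 610.7 CPM in Il17rb-Cre, 6733 to 13337 CPM in Il17ra-Cre and 11041 to 17023 CPM in Il17rc-Cre, and all 8 fell in Il17rb-Cre against either group. Il17rb-Cre and the other 2 groups did not overlap on either list.

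The 4 precursor markers of oligodendrocytes summed to 37.9 to 57.4 CPM in Il17rb-Cre, 600.8 to 1485 CPM in Il17ra-Cre and 603.0 to 716.0 CPM in Il17rc-Cre, and all 4 fell in Il17rb-Cre against either group. Olig1 and Olig2 made up most of these sums, at 1143 and 264.5 CPM of the 1485 CPM in Il17ra-Cre replicate 1. The 8 mural and fibroblast markers summed to 4.04 to 10.3 CPM in Il17rb-Cre, 131.0 to 188.8 CPM in Il17ra-Cre and 452.7 to 988.0 CPM in Il17rc-Cre, with 6 lower in Il17rb-Cre against Il17ra-Cre and 8 against Il17rc-Cre. The 7 endothelial markers summed to 4.50 to 8.35 CPM in Il17rb-Cre, 29.3 to 64.6 CPM in Il17ra-Cre and 62.2 to 136.3 CPM in Il17rc-Cre, with 3 and 5 lower in Il17rb-Cre. Markers of astrocytes, precursors and vessels were thus lowest in the libraries where most of the changed Wnt genes were lowest.

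Oligodendrocyte and microglial markers separated Il17ra-Cre. The 6 oligodendrocyte markers summed to 988.0 to 1115 CPM in Il17rb-Cre, 5083 to 42949 CPM in Il17ra-Cre and 1015 to 3816 CPM in Il17rc-Cre, with 6 lower in Il17rb-Cre against Il17ra-Cre and 1 against Il17rc-Cre. The 7 microglial markers summed to 6.27 to 11.1 CPM in Il17rb-Cre, where 1 of them was at 0 in all libraries, to 288.0 to 451.1 CPM in Il17ra-Cre and to 18.8 to 81.9 CPM in Il17rc-Cre. All 7 fell in Il17rb-Cre against Il17ra-Cre and 4 against Il17rc-Cre.

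Markers of other neurons differed less. The 7 inhibitory neuron markers summed to 950.6 to 1026 CPM in Il17rb-Cre, 183.4 to 318.4 CPM in Il17ra-Cre and 471.4 to 584.9 CPM in Il17rc-Cre, with 4 higher in Il17rb-Cre against Il17ra-Cre and 2 higher and 1 lower against Il17rc-Cre. Sst made up most of the Il17rb-Cre sums, at 581.1 to 665.1 CPM. It had 37.1 to 97.5 CPM in Il17ra-Cre and 124.0 to 199.5 CPM in Il17rc-Cre. Gad2 ran the other way, at 33.6 to 42.7 CPM in Il17rb-Cre and 46.6 to 69.6 CPM in Il17rc-Cre. The 4 layer 4 neuron markers summed to 115.1 to 149.2 CPM in Il17rb-Cre, 59.9 to 89.4 CPM in Il17ra-Cre and 97.9 to 132.6 CPM in Il17rc-Cre, with 2 higher in Il17rb-Cre against either group. Choroid plexus markers were near 0, at 0.32 to 2.91 CPM in Il17rb-Cre, 0.404 to 1.01 CPM in Il17ra-Cre and 1.24 to 1.36 CPM in Il17rc-Cre, and 2 of the 4 were at 0 in all libraries of Il17rb-Cre and of Il17ra-Cre. The part of cell type in the results below was not tested, and in these bulk pull-downs fewer cells of a type and less RNA per cell cannot be told apart.

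**Figure D2:**
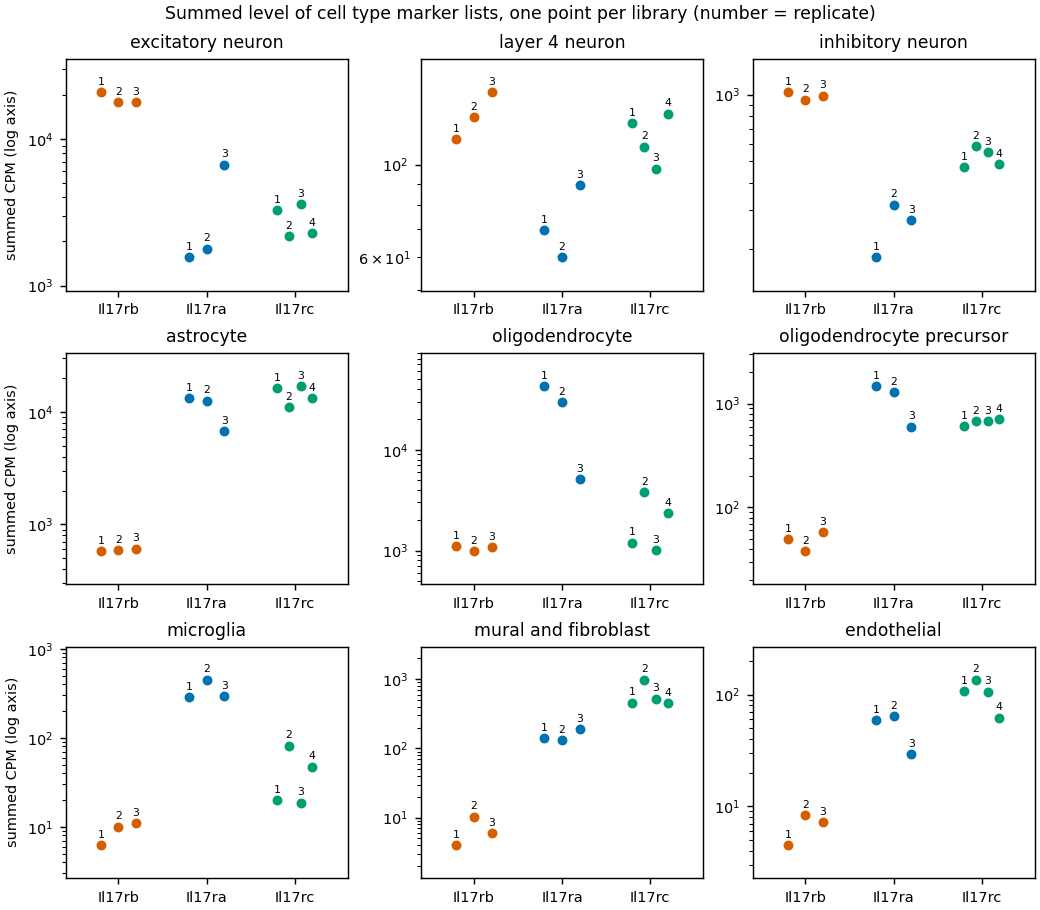
Summed level of each cell type marker list (y axis, CPM on a log axis; choroid plexus not drawn) in each library, by Cre driver on the x axis with Il17rb-Cre on the left. Excitatory neuron markers lie highest and astrocyte markers lowest in the 3 Il17rb-Cre libraries, at 17745 to 20806 CPM and 578.4 to 610.7 CPM.

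Among the ligands, Wnt10a, Wnt9a and Wnt4 were higher in Il17rb-Cre than in either other group. Of 16 ligands tested, 3 were higher and 4 lower against Il17ra-Cre, beside 16.4% and 24.4% of all genes. Against Il17rc-Cre 3 were higher and 5 lower, beside 17.7% and 21.9%, so the ligand counts lay near these shares. Wnt10a (chromosome 1, 74791516 to 74804179 on GRCm38), a ligand of the canonical branch, had 73.4, 57.1 and 63.5 CPM in Il17rb-Cre. It had 6.28, 6.95 and 39.9 CPM in Il17ra-Cre and 10.6, 12.5, 11.6 and 11.2 CPM in Il17rc-Cre. The Il17rb-Cre libraries lay above all others, and the third Il17ra-Cre library lay far above the other two.

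The log2 fold change of Wnt10a was 1.86 ± 0.60 (SE) in Il17rb-Cre against Il17ra-Cre (edgeR BH-adjusted p = 0.0308) and 2.50 ± 0.55 against Il17rc-Cre (edgeR BH-adjusted p = 0.00539). The first of these rested on the Il17ra-Cre libraries: it was 3.29 without Il17ra-Cre replicate 3 and 0.71 without replicates 1 and 2. It did not pass without Il17ra-Cre replicate 1 or 2 or any 1 of the Il17rb-Cre replicates, with edgeR BH-adjusted p between 0.0531 and 0.0827. Against Il17rc-Cre the adjusted p was 0.0525 without Il17rc-Cre replicates 1 and 3.

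Wnt9a (chromosome 11, 59306928 to 59333552) had 19.5, 31.0 and 31.4 CPM in Il17rb-Cre, against 1.37, 7.64 and 6.34 CPM in Il17ra-Cre and 10.9, 12.1, 9.53 and 7.08 CPM in Il17rc-Cre. No library of another group reached the lowest Il17rb-Cre library. Wnt9a gave a log2 fold change of 2.41 ± 0.52 against Il17ra-Cre (edgeR BH-adjusted p = 0.00456) and 1.47 ± 0.46 against Il17rc-Cre (edgeR BH-adjusted p = 0.0286). The second did not pass without replicate 2 or 3 of Il17rb-Cre or replicate 1, 3 or 4 of Il17rc-Cre, with edgeR BH-adjusted p between 0.053 and 0.0974.

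Wnt4, a ligand known for roles in kidney and reproductive tract development, had 12.7, 13.2 and 15.9 CPM in Il17rb-Cre, against 2.40, 3.82 and 7.19 CPM in Il17ra-Cre and 6.40, 5.27, 5.11 and 4.52 CPM in Il17rc-Cre. The Il17rb-Cre libraries again lay above all others. Wnt4 gave a log2 fold change of 1.63 ± 0.37 against Il17ra-Cre (edgeR BH-adjusted p = 0.00563) and 1.39 ± 0.33 against Il17rc-Cre (edgeR BH-adjusted p = 0.00819). Against Il17ra-Cre replicate 3 alone it was 0.97, with an edgeR BH-adjusted p of 0.0751.

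Wnt2, a canonical ligand, showed the same order without passing the edgeR test of all 10 libraries. It had 13.9, 15.9 and 15.7 CPM in Il17rb-Cre, against 0.00, 1.22 and 5.83 CPM in Il17ra-Cre and 4.61, 3.15, 5.54 and 3.74 CPM in Il17rc-Cre. Il17rb-Cre lay above both other groups, which overlapped, and its log2 fold changes were 2.66 ± 1.08 against Il17ra-Cre (edgeR BH-adjusted p = 0.0746) and 1.83 ± 0.95 against Il17rc-Cre (edgeR BH-adjusted p = 0.154). DESeq2 called Wnt2 higher in Il17rb-Cre against Il17ra-Cre, and limma voom against either group.

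Wnt7a and Wnt7b, the ligands of blood-brain barrier signalling, went the other way. Wnt7a (chromosome 6, 91363981 to 91411363) had 0.976, 2.34 and 2.17 CPM in Il17rb-Cre, against 25.3, 22.7 and 29.0 CPM in Il17ra-Cre and 49.8, 39.1, 52.8 and 41.4 CPM in Il17rc-Cre. The 3 groups formed separate ranges. Wnt7a gave a log2 fold change of -3.80 ± 0.32 against Il17ra-Cre (edgeR BH-adjusted p = 2.42e-05) and -4.64 ± 0.32 against Il17rc-Cre (edgeR BH-adjusted p = 6.37e-06). Il17ra-Cre against Il17rc-Cre stood at -0.83 ± 0.27 and did not pass (edgeR BH-adjusted p = 0.132). DESeq2 and limma voom called Wnt7a lower in that comparison.

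Wnt7b (chromosome 15, 85535437 to 85582473) had 6.08, 11.3 and 9.91 CPM in Il17rb-Cre, against 20.8, 28.3 and 38.9 CPM in Il17ra-Cre. In Il17rc-Cre it had 165.5, 58.9, 162.4 and 95.3 CPM. The 3 groups formed separate ranges again, and Il17rc-Cre replicates 1 and 3 lay above replicates 2 and 4. Wnt7b gave a log2 fold change of -1.69 ± 0.41 against Il17ra-Cre (edgeR BH-adjusted p = 0.0085) and -3.72 ± 0.43 against Il17rc-Cre (edgeR BH-adjusted p = 1.28e-04). Without Il17rc-Cre replicates 1 and 3 the second was -3.12.

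Il17ra-Cre against Il17rc-Cre gave a log2 fold change of -2.04 ± 0.40 for Wnt7b (edgeR BH-adjusted p = 0.0399). This call held without Il17ra-Cre replicate 3 or Il17rc-Cre replicate 2 and did not pass without any other single library, with edgeR BH-adjusted p between 0.0599 and 0.153. It was -1.44 without Il17rc-Cre replicates 1 and 3. An antisense gene, AU022754, covers 6.61% of the Wnt7b exons, and reads of the pair cannot be separated if strand was not used in counting. Wnt7a and Wnt7b together held 7.06 to 13.7 CPM in Il17rb-Cre, 46.1 to 67.9 CPM in Il17ra-Cre and 97.9 to 215.3 CPM in Il17rc-Cre.

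**Figure D3:**
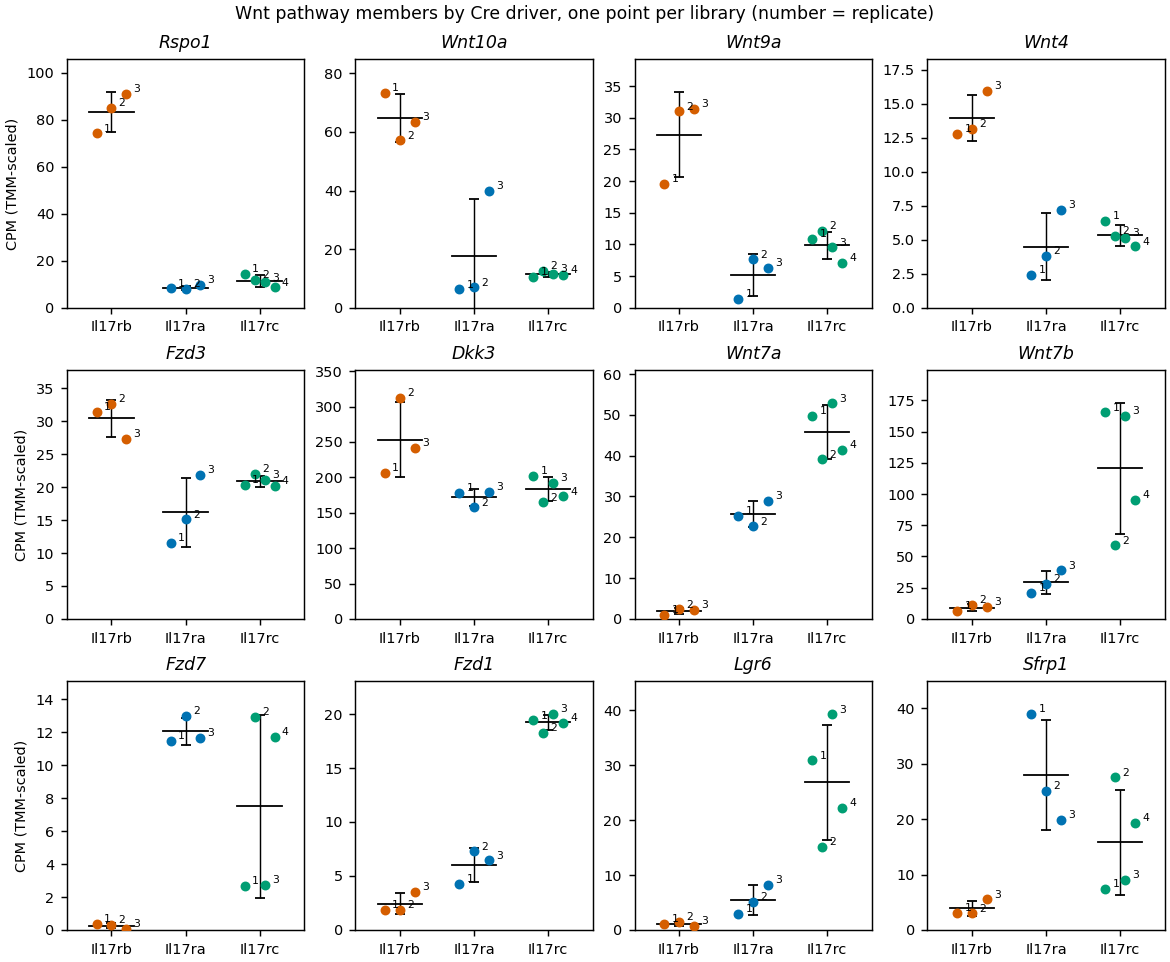
CPM of 12 Wnt pathway genes (y axis, linear, from 0) in each library by Cre driver (x axis), with a line at the mean and error bars of 1 SD, drawn down to 0 at most; the digit beside a point is its replicate number. Rspo1 lies at 74.2 to 91.2 CPM in Il17rb-Cre and at or under 14.6 CPM in all other libraries, and Wnt7a at or under 2.34 CPM in Il17rb-Cre and at or above 22.7 CPM elsewhere.

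Wnt3, a canonical ligand, was highest in Il17ra-Cre. It had 2.01, 0.494 and 1.32 CPM in Il17rb-Cre, against 15.4, 13.4 and 5.22 CPM in Il17ra-Cre and 0.679, 3.09, 0.827 and 2.51 CPM in Il17rc-Cre. Every Il17ra-Cre library lay above every other library, and Il17rb-Cre and Il17rc-Cre overlapped. Wnt3 gave a log2 fold change of -3.16 ± 0.75 in Il17rb-Cre against Il17ra-Cre (edgeR BH-adjusted p = 0.00735), and -2.03 with an edgeR BH-adjusted p of 0.168 against Il17ra-Cre replicate 3 alone. Il17rb-Cre against Il17rc-Cre stood at -0.49 (edgeR BH-adjusted p = 0.588), and Il17ra-Cre against Il17rc-Cre at 2.67 ± 0.66 (edgeR BH-adjusted p = 0.0647). In the latter comparison DESeq2 and limma voom called Wnt3 higher.

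Wnt5a and Wnt5b, ligands best known for β-catenin-independent signalling, fell in Il17rb-Cre against Il17rc-Cre. Wnt5a had 1.14, 1.24 and 1.92 CPM in Il17rb-Cre, against 2.45, 2.52 and 2.63 CPM in Il17ra-Cre and 4.09, 3.29, 4.31 and 3.75 CPM in Il17rc-Cre, in 3 separate ranges. Its log2 fold change was -1.43 ± 0.30 against Il17rc-Cre (edgeR BH-adjusted p = 0.00418) and -0.82 against Il17ra-Cre (edgeR BH-adjusted p = 0.0591). Wnt5b had 0.788, 0.507 and 0.257 CPM in Il17rb-Cre, against 1.35, 1.46 and 2.58 CPM in Il17ra-Cre and 1.15, 7.47, 3.59 and 2.79 CPM in Il17rc-Cre. Il17rb-Cre lay below both other groups, which overlapped, with -2.86 ± 0.68 against Il17rc-Cre (edgeR BH-adjusted p = 0.0077) and -1.80 against Il17ra-Cre (edgeR BH-adjusted p = 0.0559).

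Wnt11, which acts mainly through β-catenin-independent signalling, had no read in the 3 Il17rb-Cre libraries, 80 reads in Il17ra-Cre and 265 in Il17rc-Cre. Taking 3 counts over the Il17rb-Cre group as the floor, 0.0151 CPM, the Il17rb-Cre level was at least 23.5-fold lower than the Il17ra-Cre mean of 0.356 CPM and at least 63.8-fold lower than the Il17rc-Cre mean of 0.965 CPM. Il17ra-Cre replicate 1 had no read either, and replicates 2 and 3 had 0.770 and 0.299 CPM, so the first bound is at least 9.86-fold without replicate 2. Il17rc-Cre had 0.617, 2.27, 0.507 and 0.467 CPM, and the second bound is at least 35.1-fold without its replicate 2. The edgeR BH-adjusted p was 0.0181 and 0.00886. The remaining ligands tested, Wnt1, Wnt2b, Wnt6, Wnt8b, Wnt9b and Wnt16, passed no comparison.

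Wnt genes lie in close pairs on the genome, and the pairs are given by position. Wnt6 ends 6193 bases before Wnt10a on the same strand of chromosome 1, and had 1.01, 2.10 and 1.04 CPM in Il17rb-Cre, where Wnt10a had at least 57.1 CPM. Wnt9a lies 16175 bases from Wnt3a on chromosome 11, which had no read. Wnt3 lies 24328 bases from Wnt9b, which passed no comparison, and Wnt1 lies 11706 bases from Wnt10b on chromosome 15.

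Of 10 Frizzled receptors tested, 1 was higher in Il17rb-Cre and 5 lower against Il17ra-Cre, beside 16.4% and 24.4% of all genes. Against Il17rc-Cre 7 were lower, beside 21.9% of all genes. Summed over the family, Frizzled levels were 38.9 to 41.1 CPM in Il17rb-Cre, 46.9 to 61.6 CPM in Il17ra-Cre and 82.0 to 107.8 CPM in Il17rc-Cre, in 3 separate ranges. Fzd3 alone made up most of the Il17rb-Cre sums, at 27.3 to 32.6 CPM. It had 11.5 to 21.9 CPM in Il17ra-Cre and 20.2 to 22.0 CPM in Il17rc-Cre.

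Fzd1, a canonical receptor, had 1.84, 1.87 and 3.55 CPM in Il17rb-Cre, against 4.26, 7.27 and 6.44 CPM in Il17ra-Cre and 19.4, 18.3, 20.0 and 19.2 CPM in Il17rc-Cre. The 3 groups formed separate ranges. Fzd1 gave a log2 fold change of -1.31 ± 0.30 against Il17ra-Cre (edgeR BH-adjusted p = 0.00661) and -2.99 ± 0.31 against Il17rc-Cre (edgeR BH-adjusted p = 6.33e-05). Il17ra-Cre against Il17rc-Cre was -1.68 ± 0.29 (edgeR BH-adjusted p = 0.0375), which passed without Il17ra-Cre replicate 3, Il17rb-Cre replicate 3 or Il17rc-Cre replicate 2 and not without the others, where the edgeR BH-adjusted p lay between 0.0507 and 0.122.

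Fzd7, a receptor found in stem and progenitor cells of several tissues, fell furthest of the tested genes with reads in every library. It had 0.357, 0.307 and 0.0715 CPM in Il17rb-Cre, against 11.5, 13.0 and 11.7 CPM in Il17ra-Cre and 2.70, 12.9, 2.75 and 11.7 CPM in Il17rc-Cre. Il17rb-Cre lay below both other groups, and Il17rc-Cre split into replicates 1 and 3 and replicates 2 and 4. Fzd7 gave a log2 fold change of -5.62 ± 0.83 against Il17ra-Cre (edgeR BH-adjusted p = 5.75e-04) and -4.94 ± 0.79 against Il17rc-Cre (edgeR BH-adjusted p = 8.71e-04), the second -5.71 without Il17rc-Cre replicates 1 and 3.

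Fzd6, which acts in planar cell polarity, had 1.84, 0.574 and 0.500 CPM in Il17rb-Cre, against 2.21, 3.95 and 4.16 CPM in Il17ra-Cre and 6.32, 11.99, 6.91 and 11.5 CPM in Il17rc-Cre. The ranges were separate, with Il17rb-Cre replicate 1 close to Il17ra-Cre. Fzd6 gave a log2 fold change of -1.84 ± 0.54 against Il17ra-Cre (edgeR BH-adjusted p = 0.0202) and -3.25 ± 0.55 against Il17rc-Cre (edgeR BH-adjusted p = 0.00116). The first did not pass without Il17ra-Cre replicate 2, Il17rb-Cre replicate 2 or Il17rb-Cre replicate 3, with edgeR BH-adjusted p of 0.0505, 0.0689 and 0.0646, and was -2.67 without Il17rb-Cre replicate 1. The second was -4.14 without that library.

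Fzd2 had 0.469, 0.507 and 0.700 CPM in Il17rb-Cre, against 1.81, 0.584 and 3.74 CPM in Il17ra-Cre and 9.82, 6.52, 5.91 and 3.72 CPM in Il17rc-Cre. Il17rb-Cre was clear of Il17rc-Cre, and Il17ra-Cre replicate 2 lay within its range. Fzd2 gave a log2 fold change of -3.53 ± 0.63 against Il17rc-Cre (edgeR BH-adjusted p = 0.00163). Against Il17ra-Cre it was -1.88 ± 0.61 (edgeR BH-adjusted p = 0.032), was -1.09 without Il17ra-Cre replicate 3 with an edgeR BH-adjusted p of 0.13, and also did not pass without Il17ra-Cre replicate 1 or any 1 of the Il17rb-Cre replicates, with edgeR BH-adjusted p between 0.0557 and 0.0986.

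Fzd8 had 2.74, 1.56 and 2.66 CPM in Il17rb-Cre, against 8.09, 8.17 and 5.58 CPM in Il17ra-Cre and 3.27, 26.7, 5.52 and 11.0 CPM in Il17rc-Cre. All Il17rb-Cre libraries lay below the rest. Fzd8 gave a log2 fold change of -2.33 ± 0.65 against Il17rc-Cre (edgeR BH-adjusted p = 0.0174) and -1.65 against Il17ra-Cre (edgeR BH-adjusted p = 0.071). The first was -1.51 without Il17rc-Cre replicate 2, -3.07 without Il17rc-Cre replicates 1 and 3, and did not pass without Il17rb-Cre replicate 2 (edgeR BH-adjusted p = 0.0644).

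Fzd4, which also binds norrin in the retinal and brain vasculature, had 0.0751, 1.57 and 1.49 CPM in Il17rb-Cre, against 1.75, 2.41 and 1.76 CPM in Il17ra-Cre and 5.49, 5.04, 3.86 and 4.77 CPM in Il17rc-Cre. The ranges were separate, by a narrow gap between Il17rb-Cre and Il17ra-Cre. Against Il17rc-Cre the log2 fold change was -2.19 ± 0.74 (edgeR BH-adjusted p = 0.0377), which did not pass without Il17rb-Cre replicate 2 or 3 or any 1 Il17rc-Cre replicate, with edgeR BH-adjusted p between 0.0525 and 0.07. Against Il17ra-Cre it was -0.91 (edgeR BH-adjusted p = 0.357).

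Fzd10 had 0.00, 0.480 and 0.457 CPM in Il17rb-Cre, against 1.83, 2.49 and 1.36 CPM in Il17ra-Cre and 6.58, 2.75, 9.82 and 3.07 CPM in Il17rc-Cre. The 3 groups formed separate ranges. Fzd10 gave a log2 fold change of -4.12 ± 1.00 against Il17rc-Cre (edgeR BH-adjusted p = 0.00866), and -3.24 with an edgeR BH-adjusted p of 0.0637 without Il17rc-Cre replicates 1 and 3. Against Il17ra-Cre it was -2.57 (edgeR BH-adjusted p = 0.0565).

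Fzd5 had 0.00, 0.0133 and 0.157 CPM in Il17rb-Cre, against 1.86, 0.902 and 0.919 CPM in Il17ra-Cre and 0.206, 0.0138, 0.320 and 0.892 CPM in Il17rc-Cre. Il17ra-Cre lay above the other groups, and the Il17rb-Cre values rest on 12 reads. Fzd5 stood against Il17ra-Cre at a log2 fold change of -4.36 ± 1.47 (edgeR BH-adjusted p = 0.0368), which was -7.06 without Il17rb-Cre replicate 3, and did not pass without Il17ra-Cre replicate 1 or 2 or Il17rb-Cre replicate 1 or 2, with edgeR BH-adjusted p between 0.0614 and 0.113. The antisense gene Gm38058 overlaps 17.8% of its exons.

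Fzd3, a receptor of axon guidance and planar cell polarity, was the exception in its family. It had 31.4, 32.6 and 27.3 CPM in Il17rb-Cre, against 11.5, 15.1 and 21.9 CPM in Il17ra-Cre and 20.4, 22.0, 21.1 and 20.2 CPM in Il17rc-Cre. All Il17rb-Cre libraries lay above the rest. Fzd3 gave a log2 fold change of 0.91 ± 0.22 against Il17ra-Cre (edgeR BH-adjusted p = 0.00895), and 0.49 with an edgeR BH-adjusted p of 0.134 against Il17ra-Cre replicate 3 alone. Against Il17rc-Cre it was 0.54 ± 0.21 (edgeR BH-adjusted p = 0.0607).

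Fzd9 passed no comparison. It had 1.09, 1.65 and 2.04 CPM in Il17rb-Cre, 2.10, 3.03 and 4.06 CPM in Il17ra-Cre and 7.84, 1.58, 10.6 and 1.53 CPM in Il17rc-Cre, where replicates 1 and 3 were again apart from 2 and 4.

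**Figure D4:**
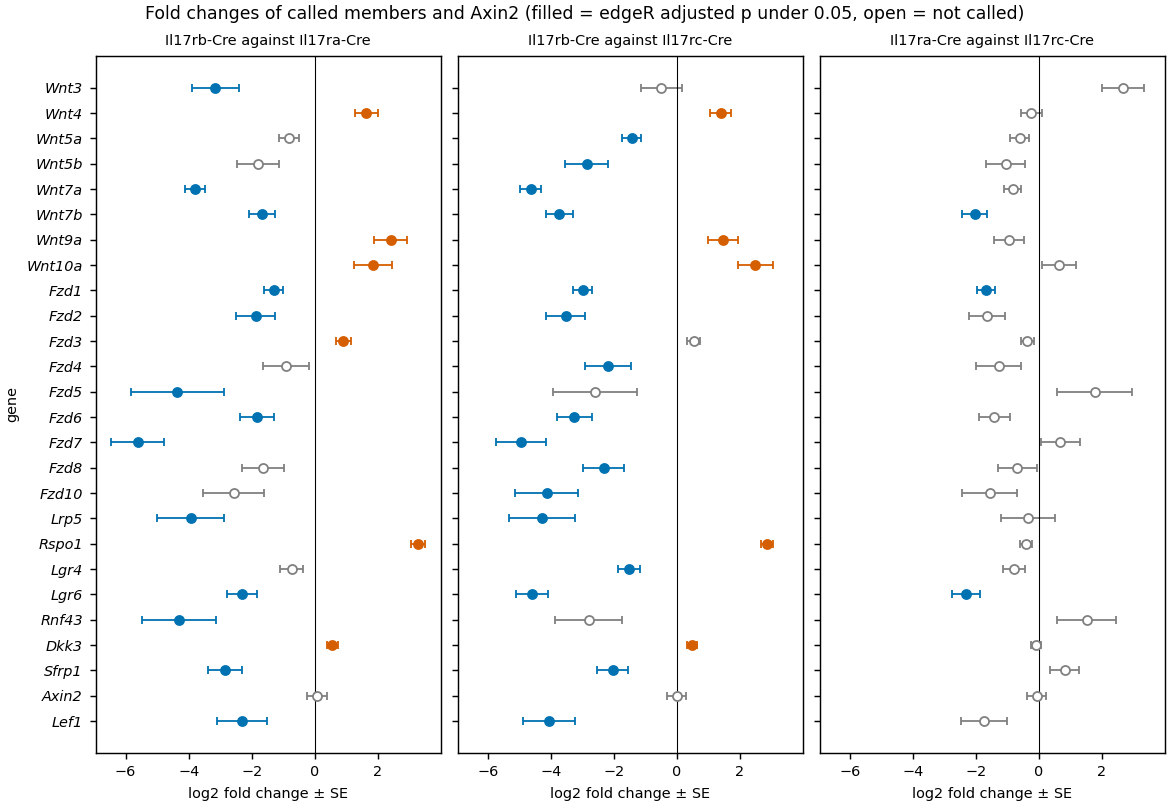
Log2 fold change with its SE (x axis) of 25 called genes and Axin2 (y axis) in the 3 comparisons, filled where the edgeR BH-adjusted p was under 0.05 and open where not. Wnt11, called but without a read in Il17rb-Cre, is not drawn; Rspo1 stands farthest to the right in both Il17rb-Cre comparisons, at 3.28 and 2.87.

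The co-receptors differed from each other. Lrp6 had 8.80, 15.8 and 11.2 CPM in Il17rb-Cre, against 12.3, 13.7 and 15.4 CPM in Il17ra-Cre and 9.86, 10.6, 9.78 and 9.32 CPM in Il17rc-Cre. The groups overlapped, and its log2 fold changes were -0.21 against Il17ra-Cre (edgeR BH-adjusted p = 0.501) and 0.27 against Il17rc-Cre (edgeR BH-adjusted p = 0.341). Lrp5 was below 1 CPM in every library, with 5 reads in Il17rb-Cre, 69 in Il17ra-Cre and 145 in Il17rc-Cre. It was lower in Il17rb-Cre, by -3.94 ± 1.07 against Il17ra-Cre (edgeR BH-adjusted p = 0.0145) and -4.28 ± 1.06 against Il17rc-Cre (edgeR BH-adjusted p = 0.00937), on few reads. The first did not pass without Il17ra-Cre replicate 2 or Il17rb-Cre replicate 1, with edgeR BH-adjusted p of 0.0514 and 0.0529, and was -3.33 without Il17ra-Cre replicate 2 and -5.37 without Il17rb-Cre replicate 3. The second was -5.76 without Il17rb-Cre replicate 3.

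Rspo1 had the smallest adjusted p among the 44 genes in each Il17rb-Cre comparison. It encodes a secreted R-spondin (ENSMUSG00000028871, chromosome 4, 124986430 to 125009099 on GRCm38, forward strand). It had 74.2, 85.0 and 91.2 CPM in Il17rb-Cre, against 8.30, 7.91 and 9.61 CPM in Il17ra-Cre and 14.6, 11.7, 10.8 and 8.67 CPM in Il17rc-Cre. The Il17rb-Cre libraries lay far above all others, and the other 2 groups overlapped. Rspo1 gave a log2 fold change of 3.28 ± 0.22 against Il17ra-Cre (edgeR BH-adjusted p = 7.5e-06) and 2.87 ± 0.19 against Il17rc-Cre (edgeR BH-adjusted p = 4.72e-06). Il17ra-Cre against Il17rc-Cre stood at -0.41 (edgeR BH-adjusted p = 0.287).

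Rspo2 and Rspo3, R-spondins with roles in limb, lung and vascular development, were not called in the edgeR model of all 10 libraries. Limma voom called both higher in Il17rb-Cre in each comparison. Rspo2 had 7.81, 9.01 and 5.77 CPM in Il17rb-Cre, against 0.647, 2.04 and 6.96 CPM in Il17ra-Cre and 2.51, 6.18, 4.20 and 5.34 CPM in Il17rc-Cre, and the groups overlapped. Rspo3 had 11.6, 10.2 and 11.7 CPM in Il17rb-Cre, against 2.78, 3.34 and 16.8 CPM in Il17ra-Cre and 3.74, 3.46, 2.82 and 8.16 CPM in Il17rc-Cre. Il17ra-Cre replicate 3 was the highest library for Rspo3 while the other two of its group were low. Without it, Rspo3 was higher in Il17rb-Cre by 1.87 against Il17ra-Cre (edgeR BH-adjusted p = 0.00896) and by 1.30 against Il17rc-Cre (edgeR BH-adjusted p = 0.0162). Rspo2 was then higher by 2.48 against Il17ra-Cre (edgeR BH-adjusted p = 0.00616) and stood at 0.72 against Il17rc-Cre (edgeR BH-adjusted p = 0.197).

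Of the Lgr receptors, which bind R-spondins, Lgr6 was lower in Il17rb-Cre in both comparisons. Lgr6 had 1.05, 1.51 and 0.743 CPM in Il17rb-Cre, against 2.86, 5.17 and 8.21 CPM in Il17ra-Cre and 30.9, 15.2, 39.3 and 22.2 CPM in Il17rc-Cre. The 3 groups formed separate ranges. Lgr6 gave a log2 fold change of -2.30 ± 0.47 against Il17ra-Cre (edgeR BH-adjusted p = 0.00346) and -4.61 ± 0.51 against Il17rc-Cre (edgeR BH-adjusted p = 9.06e-05). Il17ra-Cre against Il17rc-Cre was -2.30 ± 0.45 (edgeR BH-adjusted p = 0.039), which held without Il17ra-Cre replicate 3 or Il17rc-Cre replicate 2 and not without any other single library, with edgeR BH-adjusted p between 0.0629 and 0.14.

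Lgr4 had 2.05, 4.30 and 3.33 CPM in Il17rb-Cre, against 6.71, 4.59 and 4.84 CPM in Il17ra-Cre and 10.3, 11.4, 10.0 and 5.30 CPM in Il17rc-Cre. Il17rb-Cre lay below the rest, narrowly for Il17ra-Cre. Lgr4 gave a log2 fold change of -1.52 ± 0.36 against Il17rc-Cre (edgeR BH-adjusted p = 0.00709) and -0.74 against Il17ra-Cre (edgeR BH-adjusted p = 0.135). Lgr5, a stem cell marker of the intestine, was at 0.826 to 1.72 CPM in Il17rb-Cre, 0.0539 to 1.43 CPM in Il17ra-Cre and 0.00 to 2.53 CPM in Il17rc-Cre and was not called.

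Of the ubiquitin ligases that remove Frizzled receptors, Rnf43 was lower in Il17rb-Cre than in Il17ra-Cre. It had 0.00, 0.174 and 0.515 CPM in Il17rb-Cre, against 4.37, 7.40 and 2.24 CPM in Il17ra-Cre and 0.309, 2.31, 2.28 and 1.60 CPM in Il17rc-Cre. Il17rb-Cre was clear of Il17ra-Cre and overlapped Il17rc-Cre replicate 1. Rnf43 gave a log2 fold change of -4.31 ± 1.17 against Il17ra-Cre (edgeR BH-adjusted p = 0.0146) and -2.80 against Il17rc-Cre (edgeR BH-adjusted p = 0.0613). The first did not pass without Il17rb-Cre replicate 2 (edgeR BH-adjusted p = 0.0563), was -5.64 without Il17rb-Cre replicate 3, and was -3.23 with an edgeR BH-adjusted p of 0.161 against Il17ra-Cre replicate 3 alone. Znrf3 had 1.16, 2.80 and 1.63 CPM in Il17rb-Cre, against 2.08, 2.92 and 2.75 CPM in Il17ra-Cre and 3.23, 3.60, 5.18 and 2.08 CPM in Il17rc-Cre, overlapped between groups and was not called in the edgeR model of all 10 libraries. DESeq2 and limma voom called Znrf3 lower in Il17rb-Cre against Il17rc-Cre.

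Among the secreted inhibitors, Sfrp1 fell and Dkk3 rose in Il17rb-Cre. Sfrp1, which binds Wnt ligands, had 3.12, 2.98 and 5.53 CPM in Il17rb-Cre, against 39.0, 25.1 and 19.8 CPM in Il17ra-Cre and 7.41, 27.6, 9.02 and 19.3 CPM in Il17rc-Cre. All Il17rb-Cre libraries lay below the rest. Sfrp1 gave a log2 fold change of -2.85 ± 0.53 against Il17ra-Cre (edgeR BH-adjusted p = 0.00207) and -2.03 ± 0.50 against Il17rc-Cre (edgeR BH-adjusted p = 0.00888). Without Il17rc-Cre replicates 1 and 3 the second was -2.64.

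Dkk3, a secreted member of the Dickkopf family that differs from the others in its binding partners, had 206.8, 311.9 and 241.8 CPM in Il17rb-Cre. It had 177.9, 157.7 and 180.0 CPM in Il17ra-Cre and 201.9, 164.7, 192.4 and 173.1 CPM in Il17rc-Cre. The Il17rb-Cre libraries lay above the rest, with replicate 1 close to Il17rc-Cre replicate 1. Dkk3 gave a log2 fold change of 0.56 ± 0.17 against Il17ra-Cre (edgeR BH-adjusted p = 0.0254) and 0.47 ± 0.16 against Il17rc-Cre (edgeR BH-adjusted p = 0.0397).

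Both Dkk3 calls depended on single libraries. Against Il17ra-Cre it did not pass without Il17ra-Cre replicate 1 or 2 or Il17rb-Cre replicate 2 or 3, with edgeR BH-adjusted p between 0.0529 and 0.138. Against Il17rc-Cre it was 0.24 without Il17rb-Cre replicate 2 (edgeR BH-adjusted p = 0.335), and 0.39 with DESeq2 size factors in edgeR (adjusted p = 0.0744). It also did not pass there without replicate 1 or 2 of Il17ra-Cre, replicate 3 of Il17rb-Cre or replicate 2, 3 or 4 of Il17rc-Cre, with edgeR BH-adjusted p between 0.063 and 0.136.

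Sfrp5 had 0.375, 0.174 and 0.143 CPM in Il17rb-Cre, against 2.83, 6.13 and 0.761 CPM in Il17ra-Cre and 2.63, 0.664, 3.98 and 0.00 CPM in Il17rc-Cre. It did not pass against Il17ra-Cre (edgeR BH-adjusted p = 0.0677) or Il17rc-Cre (edgeR BH-adjusted p = 0.121). DESeq2 called Sfrp5 lower in Il17rb-Cre in both comparisons, and limma voom in neither. Sfrp2, Sfrp4 and Dkk2 were not called by edgeR, DESeq2 or limma voom.

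Axin2, a feedback inhibitor that canonical signalling induces in many cell types, showed no difference past the test. It had 6.27, 5.13 and 4.86 CPM in Il17rb-Cre, against 5.01, 3.77 and 6.74 CPM in Il17ra-Cre and 4.63, 4.11, 5.31 and 7.65 CPM in Il17rc-Cre. The groups overlapped. Axin2 gave a log2 fold change of 0.063 ± 0.32 against Il17ra-Cre (edgeR BH-adjusted p = 0.894) and -0.0023 ± 0.30 against Il17rc-Cre (edgeR BH-adjusted p = 0.996).

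Lef1, a transcription factor of the canonical branch and also its target, had 0.0375, 0.400 and 0.586 CPM in Il17rb-Cre, against 2.64, 2.02 and 0.562 CPM in Il17ra-Cre and 5.68, 7.15, 5.06 and 5.13 CPM in Il17rc-Cre. Il17rb-Cre lay far below Il17rc-Cre and overlapped Il17ra-Cre replicate 3. Lef1 gave a log2 fold change of -4.05 ± 0.82 against Il17rc-Cre (edgeR BH-adjusted p = 0.00318) and -2.32 ± 0.78 against Il17ra-Cre (edgeR BH-adjusted p = 0.0377). The second was -0.68 against Il17ra-Cre replicate 3 alone, -2.94 without Il17rb-Cre replicate 3, and did not pass without replicate 1 or 2 of Il17ra-Cre or of Il17rb-Cre or replicate 1, 3 or 4 of Il17rc-Cre, with edgeR BH-adjusted p between 0.0513 and 0.121. The first was -4.72 without Il17rb-Cre replicate 3. The antisense gene Gm43352 overlaps 13.7% of the Lef1 exons.

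**Figure D5:**
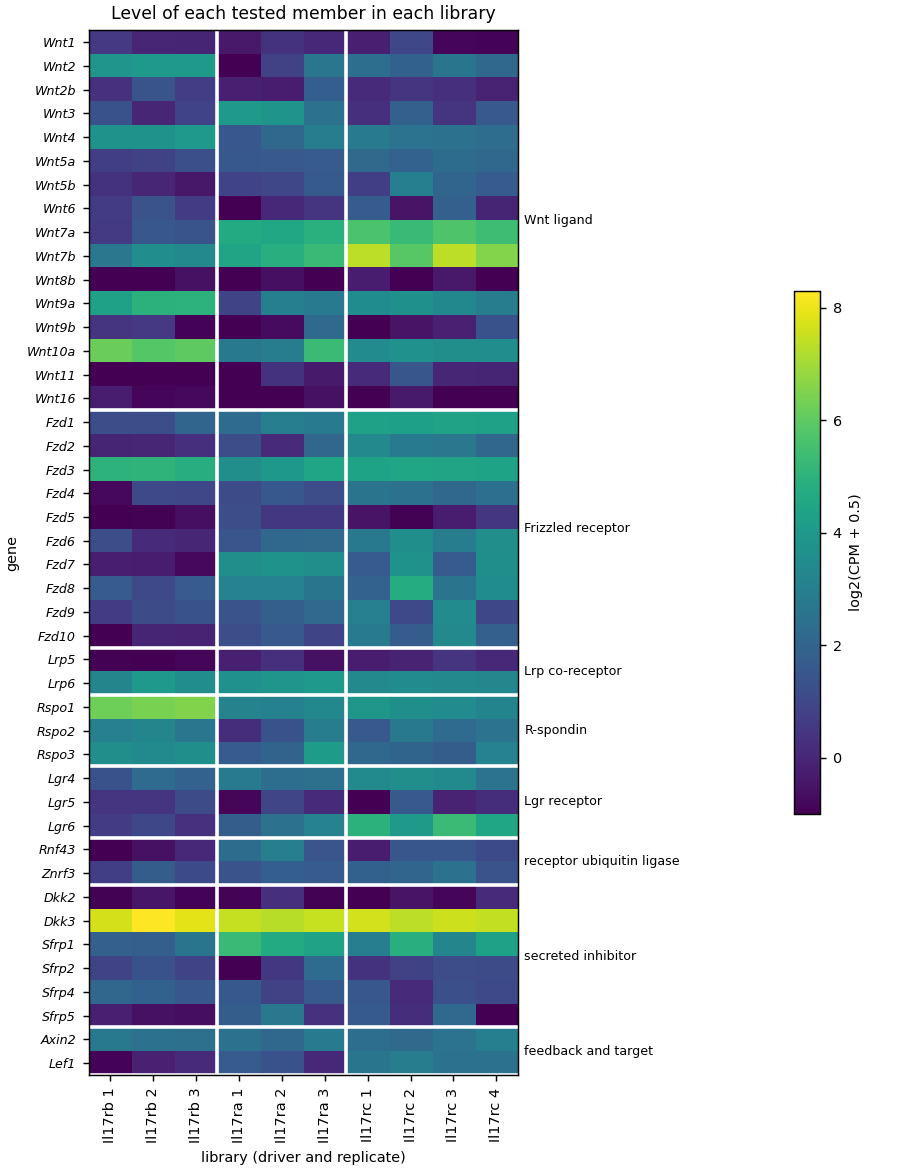
Level of the 44 tested Wnt pathway genes (y axis, grouped by role) in the 10 libraries (x axis, by driver and replicate), as log2 of CPM plus 0.5. Dkk3 is bright in every column, Rspo1 and Wnt10a in the Il17rb-Cre columns, and Wnt7b in the Il17rc-Cre columns.

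Levels were compared between genes per kilobase of exon. In Il17rb-Cre, Dkk3 came first at 75.5 ± 15.9 CPM per kb (SD, n = 3), then Rspo1 at 43.1 ± 4.42, Wnt10a at 26.2 ± 3.33, Wnt9a at 8.21 ± 2.02 and Wnt2 at 6.72 ± 0.490. The SD ranges of the first 3 did not meet, and those of Wnt9a and Wnt2 did. In Il17ra-Cre, Dkk3 was at 51.2 ± 3.67 CPM per kb (SD, n = 3), followed by Wnt7a at 8.10 ± 1.00, Wnt10a at 7.18 ± 7.79, Sfrp1 at 6.40 ± 2.27 and Wnt7b at 5.99 ± 1.85, whose SD ranges overlapped from Wnt7a down. In Il17rc-Cre, Dkk3 was at 54.5 ± 5.09 CPM per kb (SD, n = 4), Wnt7b at 24.6 ± 10.7, Wnt7a at 14.4 ± 2.08 and Rspo1 at 5.90 ± 1.27, and the ranges of Wnt7b and Wnt7a overlapped.

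Dkk3 thus held 41.0% to 49.0% of the CPM of all 51 genes in Il17rb-Cre, 36.7% to 45.2% in Il17ra-Cre and 29.5% to 32.3% in Il17rc-Cre. All Wnt ligands together held 134.8 to 145.1 CPM in Il17rb-Cre, 76.0 to 146.3 CPM in Il17ra-Cre and 150.1 to 260.7 CPM in Il17rc-Cre. The ligand total of Il17rb-Cre overlapped that of Il17ra-Cre through replicate 3 alone and lay below that of Il17rc-Cre. In Il17ra-Cre replicates 1, 2 and 3 the ligands held 76.04, 90.75 and 146.3 CPM.

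The windows of 250 bases before the RefSeq start of 4 genes are shown on GRCm38.p6, because Rspo1 had the smallest adjusted p, Wnt7a and Fzd7 fell in both Il17rb-Cre comparisons, and Axin2 passed none. Each is read 5′ to 3′ on the strand of its gene. Rspo1 is at chr4:124986180-124986429 on the forward strand, Wnt7a at chr6:91411354-91411603 on the reverse strand, Fzd7 at chr1:59481897-59482146 and Axin2 at chr11:108920099-108920348, both on the forward strand. Capitals mark a match, in reverse complement, to the word bound by Tcf and Lef factors.
Rspo1: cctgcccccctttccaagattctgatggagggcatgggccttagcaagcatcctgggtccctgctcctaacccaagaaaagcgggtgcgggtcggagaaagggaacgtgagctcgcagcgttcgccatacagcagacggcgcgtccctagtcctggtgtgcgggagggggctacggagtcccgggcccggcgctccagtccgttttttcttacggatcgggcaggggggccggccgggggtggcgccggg
Wnt7a: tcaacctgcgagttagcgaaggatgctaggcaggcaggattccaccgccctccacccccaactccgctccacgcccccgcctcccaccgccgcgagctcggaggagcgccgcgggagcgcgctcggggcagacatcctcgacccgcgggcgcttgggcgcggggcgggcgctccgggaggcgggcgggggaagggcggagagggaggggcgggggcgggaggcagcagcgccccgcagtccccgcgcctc
Fzd7: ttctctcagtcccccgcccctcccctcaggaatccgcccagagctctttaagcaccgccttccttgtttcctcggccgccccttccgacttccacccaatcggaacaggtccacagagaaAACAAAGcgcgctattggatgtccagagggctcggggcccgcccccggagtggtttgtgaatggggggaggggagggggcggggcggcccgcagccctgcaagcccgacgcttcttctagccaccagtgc
Axin2: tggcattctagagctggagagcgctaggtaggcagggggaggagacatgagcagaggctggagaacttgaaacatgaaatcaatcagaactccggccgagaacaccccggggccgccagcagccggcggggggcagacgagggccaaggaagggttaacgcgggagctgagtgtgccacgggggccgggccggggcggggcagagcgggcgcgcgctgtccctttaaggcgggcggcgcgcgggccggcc

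The word searched was CTTTG followed by 2 bases that are each A or T, on both strands, in windows of this length. RefSeq windows were matched for 33 of the 51 genes, 40 windows in all. At least 1 copy was in 5 of the 40 windows, 12.5%, beside 14.8% of all 32851 windows in the RefSeq table. The Fzd7 window held AACAAAG from 130 to 124 bases before the start. The other windows with the word were those of Wnt11, of Dkk1 with 2 copies, and of an alternative start each of Lef1 and Wnt5b. Windows of the Wnt genes had a median GC content of 66.4% and a median of 18.5 CpG dinucleotides, beside 52.4% and 6 over all windows.

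Other genes of the pathway were read from lists covering secretion, other receptors, norrin signalling, inhibitors, the destruction complex, nuclear factors and targets. Of 66 such genes 64 were tested. In Il17rb-Cre 9 were higher and 25 lower against Il17ra-Cre, beside 16.4% and 24.4% of all genes. Against Il17rc-Cre 10 were higher and 22 lower, beside 17.7% and 21.9% of all genes. These shares are the background for each list below. The median log2 fold changes of the 64 genes were -0.42 and -0.44. Il17ra-Cre against Il17rc-Cre gave 1 lower, Tspan12, and none higher, where 4 were higher at an unadjusted edgeR p under 0.05, 2 with DESeq2 and 6 with limma voom. Lower in that comparison were 15 at an unadjusted edgeR p under 0.05, 11 with DESeq2 and 13 with limma voom. Of all genes in that comparison, 1.38% were higher and 0.798% lower in the main test. With DESeq2 these were 4.82% and 5.53%, and with limma voom 13.4% and 9.18%. The share of all genes at an unadjusted p is not given here.

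The ligand secretion genes split. Wls, the carrier that brings lipid-modified Wnt proteins to the cell surface, had 9.57, 15.1 and 13.8 CPM in Il17rb-Cre, against 72.4, 57.9 and 31.4 CPM in Il17ra-Cre and 47.3, 71.4, 59.3 and 59.7 CPM in Il17rc-Cre. All Il17rb-Cre libraries lay below the rest, with log2 fold changes of -2.07 ± 0.31 (edgeR BH-adjusted p = 5.97e-04) and -2.21 ± 0.30 (edgeR BH-adjusted p = 3.14e-04). Porcn, the acyltransferase that adds the lipid, had 45.9, 59.4 and 58.6 CPM in Il17rb-Cre, against 16.4, 27.0 and 30.3 CPM in Il17ra-Cre and 25.4, 29.3, 30.5 and 22.2 CPM in Il17rc-Cre. It was higher in every Il17rb-Cre library than elsewhere, by 1.15 ± 0.24 (edgeR BH-adjusted p = 0.00371) and 1.03 ± 0.22 (edgeR BH-adjusted p = 0.00442).

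Of 13 nuclear factors of the canonical branch, 7 were lower in Il17rb-Cre against Il17ra-Cre and 5 against Il17rc-Cre, and 0 were higher in either. At an unadjusted edgeR p under 0.05, 1 was higher in each comparison, and the share of all genes at that threshold is not given here. With DESeq2 1 and 0 were higher, and with limma voom 1 and 2. Of all genes, 19.1% and 18.6% were higher with DESeq2 and 25% and 27.5% with limma voom. Tcf7l2, a Tcf factor that also acts in oligodendrocyte differentiation, had 0.807, 0.948 and 0.600 CPM in Il17rb-Cre, against 29.2, 30.4 and 12.4 CPM in Il17ra-Cre and 27.1, 18.4, 29.3 and 27.0 CPM in Il17rc-Cre. Its log2 fold changes were -4.93 ± 0.40 (edgeR BH-adjusted p = 2.02e-05) and -5.02 ± 0.39 (edgeR BH-adjusted p = 1.16e-05), with no overlap of Il17rb-Cre and the rest. Tcf7l1 fell by 3.42 and 4.46 on the log2 scale and Tcf7 by 2.85 and 3.60. Ctnnb1, which encodes β-catenin, had 80.9, 104.7 and 113.3 CPM in Il17rb-Cre and fell by 0.78 (edgeR BH-adjusted p = 0.0147) and 0.59 (edgeR BH-adjusted p = 0.0396).

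Of 7 other known targets tested, 5 were lower in Il17rb-Cre in each comparison: Ccnd1, Cd44, Tnfrsf19, Myc and Sp5. Ccnd1, a cyclin of the G1 phase, had 8.93, 7.35 and 11.3 CPM in Il17rb-Cre, against 100.6, 120.1 and 128.9 CPM in Il17ra-Cre and 54.7, 152.8, 56.3 and 119.0 CPM in Il17rc-Cre. Markers of astrocytes and mural cells fell in the same libraries, and their part in these calls was not tested.

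The destruction complex and dishevelled genes ran the other way in part. Of 15, 4 were higher in Il17rb-Cre in each comparison (Gsk3a, Csnk1e, Btrc and Dvl1), and 3 were lower against Il17ra-Cre. Gsk3a, a kinase of the complex, had 218.2, 252.4 and 227.0 CPM in Il17rb-Cre, against 51.9, 57.7 and 94.1 CPM in Il17ra-Cre and 97.9, 72.3, 97.7 and 62.0 CPM in Il17rc-Cre. Its log2 fold changes were 1.78 ± 0.26 (edgeR BH-adjusted p = 5.48e-04) and 1.50 ± 0.24 (edgeR BH-adjusted p = 7.83e-04).

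Among 9 other inhibitors tested, 1 was higher and 3 lower against Il17ra-Cre, and 2 higher and 3 lower against Il17rc-Cre. Frzb, a secreted Wnt-binding protein, had 18.8, 20.6 and 27.4 CPM in Il17rb-Cre, against 4.93, 4.75 and 7.76 CPM in Il17ra-Cre and 8.91, 3.78, 4.38 and 7.12 CPM in Il17rc-Cre. It was higher in every Il17rb-Cre library, by 1.93 ± 0.37 (edgeR BH-adjusted p = 0.00224) and 1.88 ± 0.33 (edgeR BH-adjusted p = 0.00148). Nkd1, a feedback inhibitor that binds dishevelled, fell by 2.52 (edgeR BH-adjusted p = 0.00173) and 2.98 (edgeR BH-adjusted p = 5.98e-04).

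Of 4 genes of norrin signalling, 2 were lower against Il17ra-Cre and 3 against Il17rc-Cre. Ndp encodes norrin, a Frizzled4 ligand that is not a Wnt. It had 1.07, 2.67 and 1.27 CPM in Il17rb-Cre, against 17.3, 14.0 and 11.3 CPM in Il17ra-Cre and 32.4, 21.8, 27.7 and 28.9 CPM in Il17rc-Cre, and fell by 3.08 (edgeR BH-adjusted p = 1.49e-04) and 4.05 (edgeR BH-adjusted p = 2.7e-05). Tspan12, a norrin co-receptor, fell by 2.15 (edgeR BH-adjusted p = 2.72e-04) and 3.40 (edgeR BH-adjusted p = 1.6e-05), and by 1.26 ± 0.26 in Il17ra-Cre against Il17rc-Cre (edgeR BH-adjusted p = 0.0435). That last call held without Il17ra-Cre replicate 3 or Il17rc-Cre replicate 2 and did not pass without any other single library, with edgeR BH-adjusted p between 0.0599 and 0.149, nor without Il17ra-Cre replicates 1 and 2 (0.294) or Il17rc-Cre replicates 1 and 3 (0.298).

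The list of other receptors and planar polarity genes gave 3 higher and 4 lower of 13 against Il17ra-Cre, and 3 higher and 5 lower against Il17rc-Cre. Celsr2 and Prickle2, planar polarity proteins found in neurons, were higher, Celsr2 by 1.18 and 0.90 and Prickle2 by 0.59 and 1.14. Vangl1 and Daam2 were lower, Vangl1 by -6.13 and -5.69 and Daam2 by -4.66 and -4.25 on the log2 scale. Ryk, a receptor for Wnt ligands, was lower against Il17rc-Cre alone, by -1.93 ± 0.33 (edgeR BH-adjusted p = 0.00119), and stood at -0.73 ± 0.33 against Il17ra-Cre (edgeR BH-adjusted p = 0.104).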

How the data were processed

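The deposited file holds raw counts per gene in 10 libraries, made with STAR 2.7.5c on build GRCm38 per the submitters' processing notes. Per the labels' protocols, RNA came from ribosomes captured with anti-GFP beads and was amplified as cDNA with SMART-Seq v4. How reads were assigned, whether strand was used and which annotation served are not given here by labels or headers. Amplified reads carry no molecular identifiers, so low counts vary more than their size implies and the floor of 3 counts covers counting error only.

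All 55536 gene IDs matched GENCODE M21, which gave symbols, positions on GRCm38 and exonic lengths. Genes were filtered by edgeR's filterByExpr by group, with the Il17r genes kept, keeping 20301 genes and dropping 35235. After TMM scaling the main test was the quasi-likelihood F test of edgeR 4.0.16 (R 4.3.3), fitted to all 10 libraries together, with Benjamini-Hochberg adjustment at 0.05 over all genes within a comparison. The standard error given with a log2 fold change was worked back from the test, as its absolute value over the square root of F. The dispersion common to all genes was 0.239.

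The genes and lists were chosen with earlier results of these data known. Values in every library are given for genes called in at least 1 comparison with a group mean of at least 1 CPM, and for others of the same role that a result turns on. From each further list up to 4 genes with the smallest p in a comparison are named; Ctnnb1, Sp5 and Ryk were chosen after their values were seen.

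Alternatives were DESeq2 1.42.0, voom in limma 3.58.1 with quality weights, edgeR scaled by DESeq2 size factors or by the upper quartile, no filter or 1 CPM in 3 libraries, a model of the 2 groups compared, replicate blocks and each library left out. Fits without Il17ra-Cre replicates 1 and 2 and without Il17rc-Cre replicates 1 and 3 were added after seeing the data. Tested on simulated data, the fit recovered 47% of changes by 4-fold in Il17rb-Cre against Il17ra-Cre and 45% with Il17rc-Cre as its partner. It recovered 51% in Il17ra-Cre against Il17rc-Cre, and 2%, 2% and 7% of changes by 2-fold in the same order. Each simulation changed 100 genes by 4-fold and 100 by 2-fold. In the data, 3321 genes were called higher and 4947 lower in Il17rb-Cre against Il17ra-Cre. With fewer genes changed the adjustment is stricter, so the Il17rb-Cre rates do not measure recovery in the data.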

Additional observations from a re-analysis of the deposited data

How the results depend on the processing

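Of selected values of single genes recomputed under other settings, 1310 kept their direction and side of the threshold, 65 came to pass it, 138 ceased to pass it and 13 changed sign. This tally covered the called genes and Axin2, Lrp6, Znrf3, Fzd9, Rspo2, Rspo3, Wnt2 and Sfrp5. Of Il17ra-Cre against Il17rc-Cre, the least stable comparison, it held only Fzd1, Lgr6, Wnt7b, Wnt3 and Wnt10a. Calls kept in every fit that left out 1 library were 4 of 6 higher and 8 of 14 lower for Il17rb-Cre against Il17ra-Cre, 3 of 5 and 15 of 17 against Il17rc-Cre, and 0 of 3 lower for Il17ra-Cre against Il17rc-Cre. Leaving out 1 library gave 4 to 10 higher and 9 to 16 lower for Il17rb-Cre against Il17ra-Cre, 3 to 8 and 16 to 18 against Il17rc-Cre, and 0 to 1 and 0 to 6 for Il17ra-Cre against Il17rc-Cre. Of all genes, the same fits gave 11.7% to 20.9% higher and 19% to 26.1% lower in the first comparison. The second gave 10.5% to 20.3% and 17.5% to 23.1%, and the third 0% to 7.31% and 0% to 6.38%.

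For Il17rb-Cre against Il17ra-Cre, 8 in place of 14 genes were lower without Il17ra-Cre replicates 1 and 2. For Il17rb-Cre against Il17rc-Cre, 5 higher genes became 9 with limma voom, 8 without Il17ra-Cre replicates 1 and 2, 2 without Il17rc-Cre replicates 1 and 3, and 3 with a replicate block by either number. For Il17ra-Cre against Il17rc-Cre, no higher gene became 1 with DESeq2, 4 with limma voom and 1 with the 1 CPM filter. Its 3 lower genes became 6 with DESeq2, 6 with limma voom, and 0 in each of 5 settings: the 2-group model, a replicate block by either number, and the fits without Il17ra-Cre replicates 1 and 2 or without Il17rc-Cre replicates 1 and 3. At an unadjusted p under 0.05, 8 were lower with edgeR in the model of all 10 libraries. The share of all genes at that threshold is not given here. At the adjusted threshold the share of all genes moved too. Of all genes, 17.7% were higher in Il17rb-Cre against Il17rc-Cre in the main test and 27.5% with limma voom. It was 11% without Il17rc-Cre replicates 1 and 3 and 13.1% and 12.8% with the replicate blocks. In Il17ra-Cre against Il17rc-Cre, DESeq2 called 4.82% higher and 5.53% lower, and limma voom 13.4% and 9.18%. The 1 CPM filter gave 2.55% higher, and the 2-group model and replicate blocks at most 0.00985% lower. The cause was not tested.

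All sign changes within that tally were in values not called in the model of all 10 libraries. Wnt10a in Il17ra-Cre against Il17rc-Cre was -0.49 with limma voom and ran from -0.79, without Il17ra-Cre replicate 3, to 0.97 over the fits that left out 1 library. At -0.79 Wnt10a was called lower in Il17ra-Cre, so that change of sign passed the test. Axin2 in Il17rb-Cre against Il17ra-Cre was -0.13 without Il17ra-Cre replicate 2, -0.046 without Il17rb-Cre replicate 1 and -0.30 without Il17ra-Cre replicates 1 and 2, with 0.30 as its highest value over the fits without 1 library. Axin2 in Il17rb-Cre against Il17rc-Cre was 0.0077 with limma voom, 0.10 with upper quartile scaling, 0.22 with the replicate block, 0.052 with the block by library number, 0.0064 without Il17rb-Cre replicate 3 and 0.21 without Il17rc-Cre replicate 4, from a lowest value of -0.17. Lrp6 was -0.039 in Il17rb-Cre against Il17rc-Cre without Il17rb-Cre replicate 2 and 0.40 at most, and Rspo3 was -0.58 in Il17rb-Cre against Il17ra-Cre without Il17ra-Cre replicates 1 and 2.

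Deviations from the group means were correlated between libraries of different groups. The correlations were -0.083 to 0.18 over 9 pairs with the same replicate number and -0.19 to 0.084 over 24 other pairs. In groups of 3 or 4 libraries these values cannot decide whether the numbers pair the libraries. With the replicate block 5 genes were higher and 12 lower in Il17rb-Cre against Il17ra-Cre, beside 15.6% and 22% of all genes. Against Il17rc-Cre 3 were higher and 15 lower, beside 13.1% and 18.3% of all genes. Over all genes, Il17ra-Cre against Il17rc-Cre had 281 higher and 162 lower, against 216 and 226 with DESeq2 size factors in edgeR, 978 and 1123 with DESeq2, 2716 and 1863 with limma voom, 0 and 2 with the replicate block and 0 and 1 with 2 groups. Upper quartile scaling moved the median of all genes to 0.041 in Il17rb-Cre against Il17ra-Cre and to 0.13 against Il17rc-Cre. Fzd5 and Lrp5 rest on 12 and 5 reads in Il17rb-Cre.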
